A study of Homo sapiens with 12 samples.

Results

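The serine synthesis and mitochondrial one-carbon enzymes described here are 10 human genes, chosen by symbol: PHGDH, PSAT1, PSPH, SHMT1, SHMT2, MTHFD2, MTHFD1L, ALDH1L2, PCK2 and PYCR1. Each matched 1 of the 40825 rows of the gene table, and all 10 were among the 15587 rows with a mean FPKM of at least 0.5, which were tested. RNA had been sequenced from Huh7 and PLC/PRF/5, established hepatocellular carcinoma lines that the labels give as wild type, in 4 groups of 3 replicates: Huh7 with lenvatinib, Huh7 with the solvent DMSO alone, PLC/PRF/5 with lenvatinib and PLC/PRF/5 with DMSO. Lenvatinib blocks receptor tyrosine kinases, among them the VEGF and FGF receptors, and is used against this tumour. The labels state neither a dose nor how long the cells were exposed. Each line stands for a single tumour, and nothing says that the replicates were separate cultures, so the p-values reflect sample-to-sample spread that may be purely technical. The study itself addressed lenvatinib resistance and the trafficking gene STX6.

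PHGDH, PSAT1 and PSPH turn the glycolytic intermediate 3-phosphoglycerate into serine. Serine hydroxymethyltransferases then pass a carbon from serine to folate, leaving glycine, with SHMT2 acting in mitochondria and SHMT1 in the cytosol. Mitochondrial MTHFD2, MTHFD1L and ALDH1L2 oxidise that carbon towards formate or carbon dioxide, while PCK2 makes phosphoenolpyruvate and PYCR1 makes proline in the same compartment. Several of these genes are known targets of ATF4, the transcription factor of the integrated stress response, and several are known to be raised in liver cancer.

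In Huh7 with lenvatinib, 6 of the 10 enzymes rose and 1 fell, where 11.4% of all rows tested were higher and 13.3% lower. In PLC/PRF/5 with lenvatinib, 6 rose and none fell by edgeR's test (nor did any fall at an unadjusted p under 0.05, with DESeq2 or with limma), where 9.05% of all rows were higher and 11.1% lower. PHGDH, PSAT1, SHMT2, MTHFD2 and PCK2 rose in both lines. PSPH rose and SHMT1 fell in Huh7 and neither passed the test in PLC/PRF/5, where ALDH1L2 rose. PHGDH and PSAT1 rose more in PLC/PRF/5 than in Huh7. Around them, mRNAs of glycolytic enzymes that make and use 3-phosphoglycerate were lower with lenvatinib in both lines.

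The sequences before the transcription starts of PHGDH, PSAT1 and MTHFD1L are shown because the first pair rose in both lines and MTHFD1L, by contrast, did not pass the test in either. They are from RefSeq on GRCh38.p14, plus strand, 250 bases each, and lie on chromosomes 1, 9 and 6 at chr1:119711684-119711933, chr9:78296875-78297124 and chr6:150866236-150866485. Capitals mark the amino acid response element core TGATGNAA, which ATF4 with a C/EBP partner is known to bind, the E-box CACGTG and the CCAAT box.
PHGDH: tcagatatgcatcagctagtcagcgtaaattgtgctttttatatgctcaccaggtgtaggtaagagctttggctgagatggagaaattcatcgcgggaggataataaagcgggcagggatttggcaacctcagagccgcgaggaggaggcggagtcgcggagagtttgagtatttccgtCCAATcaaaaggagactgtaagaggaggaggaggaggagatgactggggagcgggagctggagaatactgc
PSAT1: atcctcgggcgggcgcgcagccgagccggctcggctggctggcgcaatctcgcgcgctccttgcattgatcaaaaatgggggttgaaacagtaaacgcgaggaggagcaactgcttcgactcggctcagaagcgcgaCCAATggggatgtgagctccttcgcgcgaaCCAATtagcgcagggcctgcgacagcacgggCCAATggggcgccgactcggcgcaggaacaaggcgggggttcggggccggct
MTHFD1L: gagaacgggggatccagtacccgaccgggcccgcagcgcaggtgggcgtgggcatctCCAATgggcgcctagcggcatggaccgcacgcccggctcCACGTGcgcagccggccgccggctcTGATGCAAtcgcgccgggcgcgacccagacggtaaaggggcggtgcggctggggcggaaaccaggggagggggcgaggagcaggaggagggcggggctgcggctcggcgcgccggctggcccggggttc

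Promoter windows, from 250 bases before to 50 after the start, were matched for 6 of the 10 genes: PHGDH, PSAT1, SHMT1, MTHFD2, MTHFD1L and PCK2. The response element core TGATGNAA, searched on both strands, was in 1 of these 6 windows, that of MTHFD1L, and in 3.62% of the 35116 RefSeq promoters. CACGTG was also in the MTHFD1L window alone of the 6, against 7.26% of all promoters. CCAAT, a motif added after the sequences had been seen, was in 6 of 6 windows on one strand or the other, against 34.6% of all promoters. No searched motif overlapped another. PSAT1 carried 3 CCAAT boxes in the same direction, SHMT1 and MTHFD2 carried 2 each, and PHGDH, MTHFD1L and PCK2 carried 1 each. These matches are descriptions of letters in the windows and name no bound site.

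Total counts per library ran from 70236175 to 75820318, and the members had between 598 and 49156 counts in a library, a counting error of 4.09% to 0.451%. Levels are given in FPKM (fragments scaled by transcript length and library depth), the authors' own column, and changes as log2 fold changes of the counts with their standard errors, from edgeR's quasi-likelihood F test adjusted over the 15587 rows by Benjamini-Hochberg, with a threshold of 0.05. The fold changes carry a further scaling of the libraries (TMM). Its factors were 1.03 to 1.036 in PLC/PRF/5 with lenvatinib and 0.9767 to 0.9838 with DMSO. FPKM ratios of lenvatinib to DMSO in PLC/PRF/5 therefore lie slightly above the fold changes given. For each member the ratio of FPKM to CPM (counts scaled by library total alone) stayed within 99.1% to 101.2% of its median over the 12 libraries, so the FPKM and count columns agreed before that scaling. STX6, the only other gene checked in this way, ran from 27.4% to 311%. Its FPKM averaged 36.5 ± 0.520 in Huh7 with lenvatinib and 6.50 ± 0.507 with DMSO (SD, n = 3). In PLC/PRF/5 it averaged 42.2 ± 1.49 and 9.41 ± 0.959. The STX6 counts gave log2 fold changes of -0.03 ± 0.50 in Huh7 and 0.18 ± 0.50 in PLC/PRF/5 that did not pass the test. Those counts varied widely within PLC/PRF/5, at 6101, 6515 and 2105 with lenvatinib and 5470, 1229 and 5583 with DMSO. Hepatocyte markers summed to 1095 to 1506 FPKM in Huh7 with lenvatinib and 852 to 887 with DMSO, and to 447 to 449 and 573 to 620 FPKM in PLC/PRF/5 with lenvatinib and DMSO. A few genes dominate these sums. In Huh7, ALB averaged 868 FPKM with lenvatinib and 546 with DMSO, while AFP (99.6 and 134) and TTR (21.4 and 60.3) were lower with lenvatinib. In PLC/PRF/5 only APOB (190 with lenvatinib and 282 with DMSO) and FGB (88.8 and 195) were lower. All other hepatocyte markers were higher on average with lenvatinib in both lines. All 9 of these markers reached a mean of 1 FPKM in Huh7 and 8 of 9 in PLC/PRF/5, where transthyretin (TTR) stood at 0.196 FPKM with lenvatinib and 0.120 with DMSO. The 9 markers of immune, endothelial and stromal cells summed to 3.91 to 4.62 FPKM in Huh7 with lenvatinib, 4.56 to 4.65 with DMSO, 12.2 to 15.3 in PLC/PRF/5 with lenvatinib and 17.1 to 20.8 with DMSO, and 1 gene made up most of the PLC/PRF/5 sums: CD68, a lysosomal protein used to mark macrophages, averaged 12.6 FPKM with lenvatinib and 16.2 with DMSO there, and 0.964 and 0.406 FPKM in Huh7. Of the others, PTPRC (leukocytes), CD3E (T cells) and VWF (endothelium) were at or below 0.0208, 0.0131 and 0.0112 FPKM on average in every group. Not all were that low: COL1A1, a stromal collagen, averaged 2.10 FPKM in Huh7 with lenvatinib and 3.125 with DMSO. PECAM1, also an endothelial marker, averaged from 0.433 FPKM in Huh7 with DMSO to 1.10 in PLC/PRF/5 with DMSO. Mitochondrial transcripts took 6.33% to 6.88% of the counts in Huh7 with lenvatinib and 5.57% to 5.69% with DMSO, and 10.99% to 11.3% and 10.3% to 10.6% in PLC/PRF/5 with lenvatinib and DMSO. The part of these shifts in the results below was not tested. In such bulk RNA, a change in the mix of cells and a change in RNA per cell cannot be told apart.

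**Figure D1:**
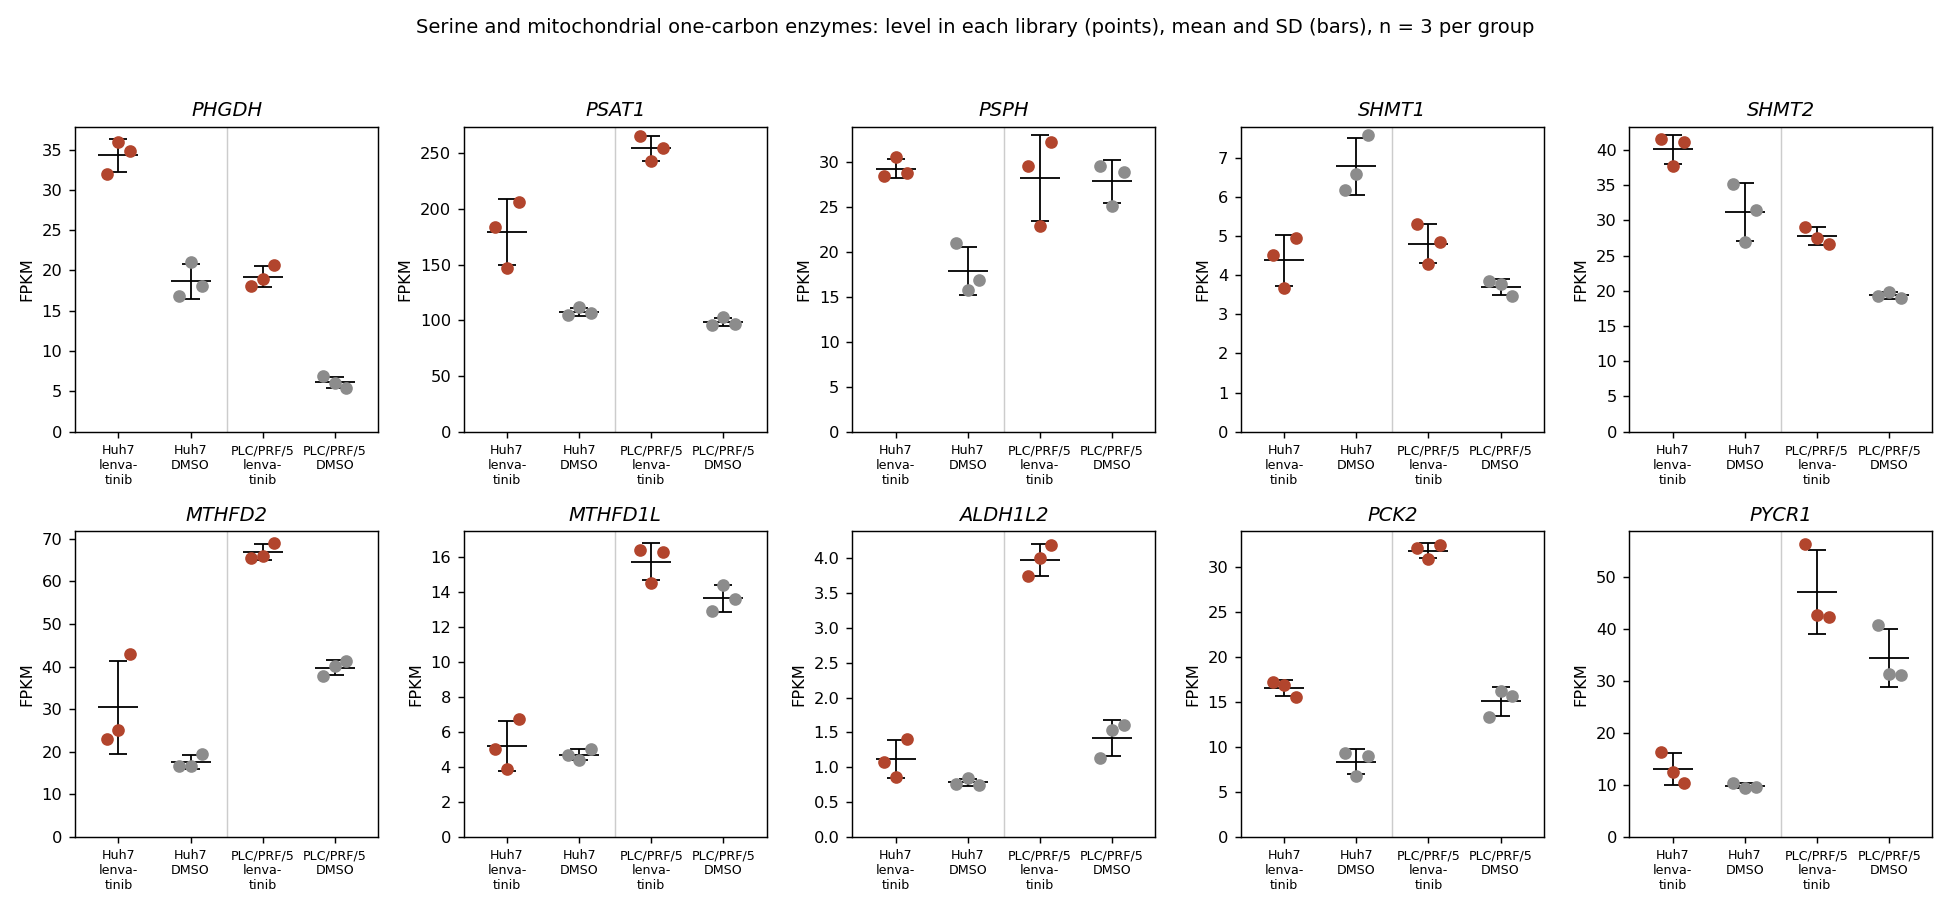
Level in FPKM (vertical axis, from 0) of the 10 enzymes in each library (points), with mean and SD (bars), for lenvatinib (red) and DMSO (grey) in Huh7 and PLC/PRF/5, n = 3 per group. PHGDH, PSAT1, SHMT2, MTHFD2, ALDH1L2 and PCK2 with lenvatinib lie above DMSO in every library of both lines, whereas SHMT1 lies below DMSO in Huh7.

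PHGDH, which oxidises 3-phosphoglycerate and commits it to serine, stood at 32.0, 36.0 and 34.8 FPKM in the Huh7 libraries with lenvatinib, against 16.8, 21.0 and 18.1 FPKM with DMSO. Every lenvatinib library was above every DMSO library, and the log2 fold change was 0.86 ± 0.10 (adjusted p = 0.000175). The share of all rows whose libraries separate in this way was not counted, here or for the enzymes below. PHGDH in PLC/PRF/5 stood at 18.1, 19.0 and 20.7 FPKM with lenvatinib, against 6.86, 5.999 and 5.47 FPKM with DMSO. Here too the groups did not overlap, and the log2 fold change was 1.57 ± 0.11 (adjusted p = 1.05e-05), a 2.98-fold higher level. Its mean was 19.2 ± 1.33 FPKM in PLC/PRF/5 with lenvatinib, beside 18.7 ± 2.17 FPKM in Huh7 with DMSO (SD, n = 3 each), a difference that was not tested.

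PSAT1, the aminotransferase of the pathway, was the most abundant of the 10 mRNAs in every library and held between 36.7% and 52.5% of their summed FPKM. It stood at 184, 147 and 207 FPKM in Huh7 with lenvatinib, against 105, 112 and 107 FPKM with DMSO, and rose by 0.71 ± 0.09 on the log2 scale (adjusted p = 0.000275). The lenvatinib libraries spread more widely than the DMSO libraries but did not overlap them. The PLC/PRF/5 levels were 265, 243 and 255 FPKM with lenvatinib, against 96.1, 103 and 96.5 FPKM with DMSO. That rise was 1.29 ± 0.09 on the log2 scale (adjusted p = 1.82e-05), with no overlap.

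PSPH, the phosphatase that releases serine, stood at 28.5, 30.5 and 28.8 FPKM in Huh7 with lenvatinib, against 20.9, 15.8 and 16.9 FPKM with DMSO. It rose without overlap, by 0.69 ± 0.13 on the log2 scale (adjusted p = 0.00327). The PSPH levels in PLC/PRF/5 were 29.5, 22.9 and 32.3 FPKM with lenvatinib and 29.6, 25.1 and 28.9 FPKM with DMSO. The groups overlapped, and the log2 fold change was -0.06 ± 0.13 (adjusted p = 0.808, 95% interval -0.35 to 0.23); its sign changed with scaling by library totals, where it was 0.0168. Of the 3 enzymes of serine synthesis, 3 rose in Huh7 and 2 in PLC/PRF/5. The pseudogene PSPHP1 reached 549 counts in a library, against at least 3844 for PSPH, and how shared reads were split between the copies is not stated, so the PSPH counts are uncertain to that extent.

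The hydroxymethyltransferases of the cytosol and the mitochondria moved in opposite directions in Huh7. Cytosolic SHMT1 stood at 4.51, 3.68 and 4.95 FPKM with lenvatinib, against 6.17, 6.59 and 7.59 FPKM with DMSO, and fell by 0.65 on the log2 scale (standard error 0.12, adjusted p = 0.00242). Mitochondrial SHMT2 stood at 41.5, 37.7 and 41.1 FPKM with lenvatinib, against 35.1, 26.9 and 31.5 FPKM with DMSO, and rose by 0.34 ± 0.08 (adjusted p = 0.0104). Neither gene's groups overlapped. The ratio of SHMT2 to SHMT1 in FPKM was 9.20, 10.3 and 8.30 in Huh7 with lenvatinib and 5.69, 4.09 and 4.15 with DMSO.

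In PLC/PRF/5, SHMT2 stood at 29.1, 27.5 and 26.6 FPKM with lenvatinib, against 19.2, 19.8 and 19.0 FPKM with DMSO, and rose by 0.44 ± 0.08 (adjusted p = 0.00369). SHMT1 there was at 5.29, 4.28 and 4.84 FPKM with lenvatinib and 3.86, 3.78 and 3.47 FPKM with DMSO. The SHMT1 libraries did not overlap, but the change of 0.30 ± 0.12 did not pass the test (adjusted p = 0.110). The SHMT2 to SHMT1 ratio lay between 5.499 and 6.41 with lenvatinib and between 4.98 and 5.48 with DMSO. By the GENCODE 29 annotation (GRCh38, whereas the reads were aligned to hg19), 196 bases of SHMT1 exons overlap SMCR8 on the opposite strand, which reached 13.7 FPKM; whether the counting used strand is not stated, so SHMT1 counts are uncertain to that extent.

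MTHFD2, the dehydrogenase and cyclohydrolase that carries the mitochondrial carbon onward, stood at 22.9, 25.1 and 43.0 FPKM in Huh7 with lenvatinib, against 16.6, 16.6 and 19.5 FPKM with DMSO. All 3 lenvatinib libraries were above DMSO, with replicate 3 far above the other 2. The log2 fold change was 0.76 ± 0.19 (adjusted p = 0.0138); without that replicate it was 0.44 (adjusted p = 0.0032), and the call was lost by a narrow margin without DMSO replicate 1 (adjusted p = 0.05002) or DMSO replicate 2 (0.05013). MTHFD2 in PLC/PRF/5 stood at 65.5, 66.0 and 69.1 FPKM with lenvatinib, against 37.9, 40.0 and 41.4 FPKM with DMSO. These groups lay far apart, and the log2 fold change was 0.67 ± 0.19 (adjusted p = 0.0304). Leaving out any 1 of the 6 PLC/PRF/5 libraries ended that call, with log2 fold changes of 0.64 to 0.70 and adjusted p from 0.0649 to 0.0892. The spread in these fits is shared by the libraries of both lines, Huh7 lenvatinib replicate 3 included. The PLC/PRF/5 call was kept in 17 of 24 alternatives, among them a fit of only the PLC/PRF/5 groups. Over all 24 the adjusted p ran from 0.000296 to 0.0892. On the opposite strand, 1324 bases of MTHFD2 exons overlap SLC4A5, which reached 0.276 FPKM.

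MTHFD1L, the ligase that releases formate, stood at 5.00, 3.86 and 6.71 FPKM in Huh7 with lenvatinib and 4.67, 4.38 and 4.99 FPKM with DMSO. The groups overlapped, and the log2 fold change was 0.12 ± 0.15 (adjusted p = 0.622); without lenvatinib replicate 3 its sign turned, to -0.0951. In PLC/PRF/5 it stood at 16.4, 14.5 and 16.3 FPKM with lenvatinib and 12.9, 14.4 and 13.6 FPKM with DMSO, a log2 fold change of 0.13 ± 0.15 (adjusted p = 0.619, 95% interval -0.21 to 0.46). These PLC/PRF/5 groups did not overlap, by a narrow margin (14.49 against 14.42 FPKM).

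ALDH1L2, which oxidises 10-formyltetrahydrofolate to carbon dioxide with the formation of NADPH, was the least abundant of the 10 in every group mean. It stood at 3.74, 4.01 and 4.20 FPKM in PLC/PRF/5 with lenvatinib, against 1.12, 1.53 and 1.60 FPKM with DMSO. The groups lay far apart, and the rise was 1.41 ± 0.18 on the log2 scale (adjusted p = 0.00047). In Huh7 the levels stood at 1.08, 0.863 and 1.40 FPKM with lenvatinib and 0.759, 0.843 and 0.736 FPKM with DMSO. The 2 sets of libraries nearly touched, and the change of 0.49 ± 0.17 did not pass the test (adjusted p = 0.0655). Without lenvatinib replicate 3 that change was 0.299 (adjusted p = 0.228), and without lenvatinib replicate 2 it was 0.637 and passed (0.0218). It also passed with DESeq2 (adjusted p = 0.0296) and without the PLC/PRF/5 DMSO replicate 1 (0.0432).

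PCK2, the mitochondrial carboxykinase that feeds oxaloacetate carbon into phosphoenolpyruvate, changed by nearly the same factor in both lines. It stood at 17.2, 16.9 and 15.6 FPKM in Huh7 with lenvatinib, against 9.29, 6.72 and 9.02 FPKM with DMSO, a rise of 0.97 ± 0.12 on the log2 scale (adjusted p = 0.000151). PLC/PRF/5 libraries stood at 32.2, 30.9 and 32.5 FPKM with lenvatinib, against 13.3, 16.3 and 15.7 FPKM with DMSO, a rise of 1.0005 ± 0.115 (adjusted p = 0.000295). Neither line's groups overlapped. The difference between the lines' PCK2 changes was 0.03 (95% interval -0.32 to 0.39).

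PYCR1, the last enzyme of proline synthesis, stood at 16.2, 12.4 and 10.25 FPKM in Huh7 with lenvatinib and 10.27, 9.39 and 9.64 FPKM with DMSO. Its log2 fold change of 0.39 ± 0.18 did not pass the test (adjusted p = 0.146). It was 0.196 (adjusted p = 0.459) without lenvatinib replicate 1, the highest of the group, and 0.54, which passed (adjusted p = 0.0435), without lenvatinib replicate 3, the lowest. Levels in PLC/PRF/5 were 56.3, 42.5 and 42.2 FPKM with lenvatinib and 40.7, 31.2 and 31.0 FPKM with DMSO. The change of 0.37 ± 0.18 did not pass the test either (adjusted p = 0.171). The PLC/PRF/5 groups did not overlap, with 42.2 FPKM the lowest with lenvatinib and 40.7 the highest with DMSO. Replicate 1 was the highest in all 4 groups. PYCR1 exons share 408 bases with MYADML2 on the same strand, which reached 0.420 FPKM.

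**Figure D2:**
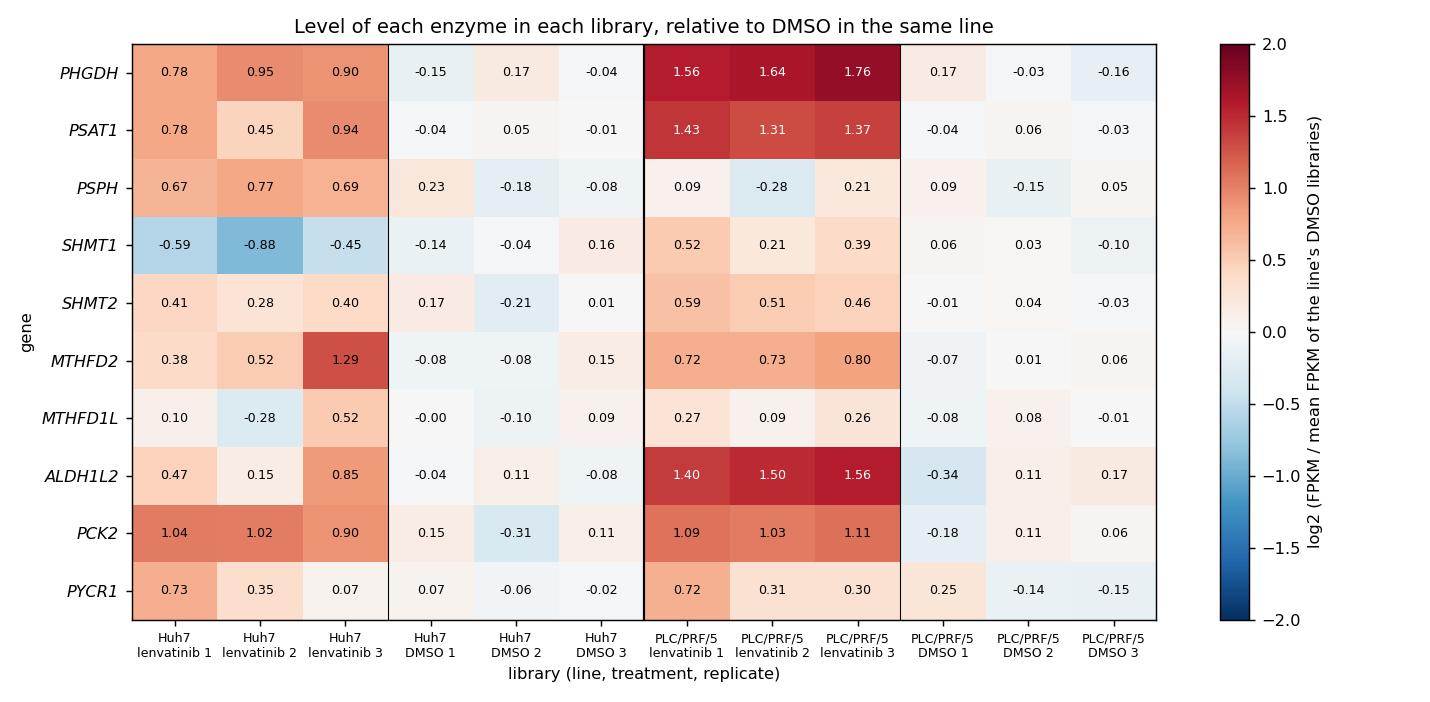
Log2 ratio of each enzyme's FPKM in each library to the mean of the DMSO libraries of the same line (colour and number; rows are genes, columns are libraries). Huh7 lenvatinib replicate 3 holds the highest MTHFD2 (1.29), MTHFD1L (0.52) and ALDH1L2 (0.85) ratios of its group and the lowest PYCR1 ratio (0.07).

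Among the Huh7 lenvatinib libraries, replicate 3 was far above the other 2 for MTHFD2. Without it, 8 of the 10 passed the test in Huh7, 7 higher and 1 lower; the count with all libraries was 7 of 10, and the gained call was PYCR1. The rises of PHGDH (0.85), PSAT1 (0.61), PSPH (0.71) and PCK2 (1.02) and the fall of SHMT1 (-0.74) were of similar size on the log2 scale without it.

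These counts stand against a broad response. In Huh7 with lenvatinib, 24.7% of all rows tested passed the threshold in either direction, against 7 of the 10 enzymes. In PLC/PRF/5, 20.1% passed, against 6 of the 10. The median log2 fold change of the 10 was 0.59 in Huh7 and 0.56 in PLC/PRF/5, against 0.0030 and -0.0068 over all rows. Of the rows called in PLC/PRF/5, 45.0% were higher; with library totals as the only scaling that share was 63.0%, and in limma fits of FPKM it was 62.4%, with the median of all rows in PLC/PRF/5 at 0.067 and 0.0459 (pseudocount 1).

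**Figure D3:**
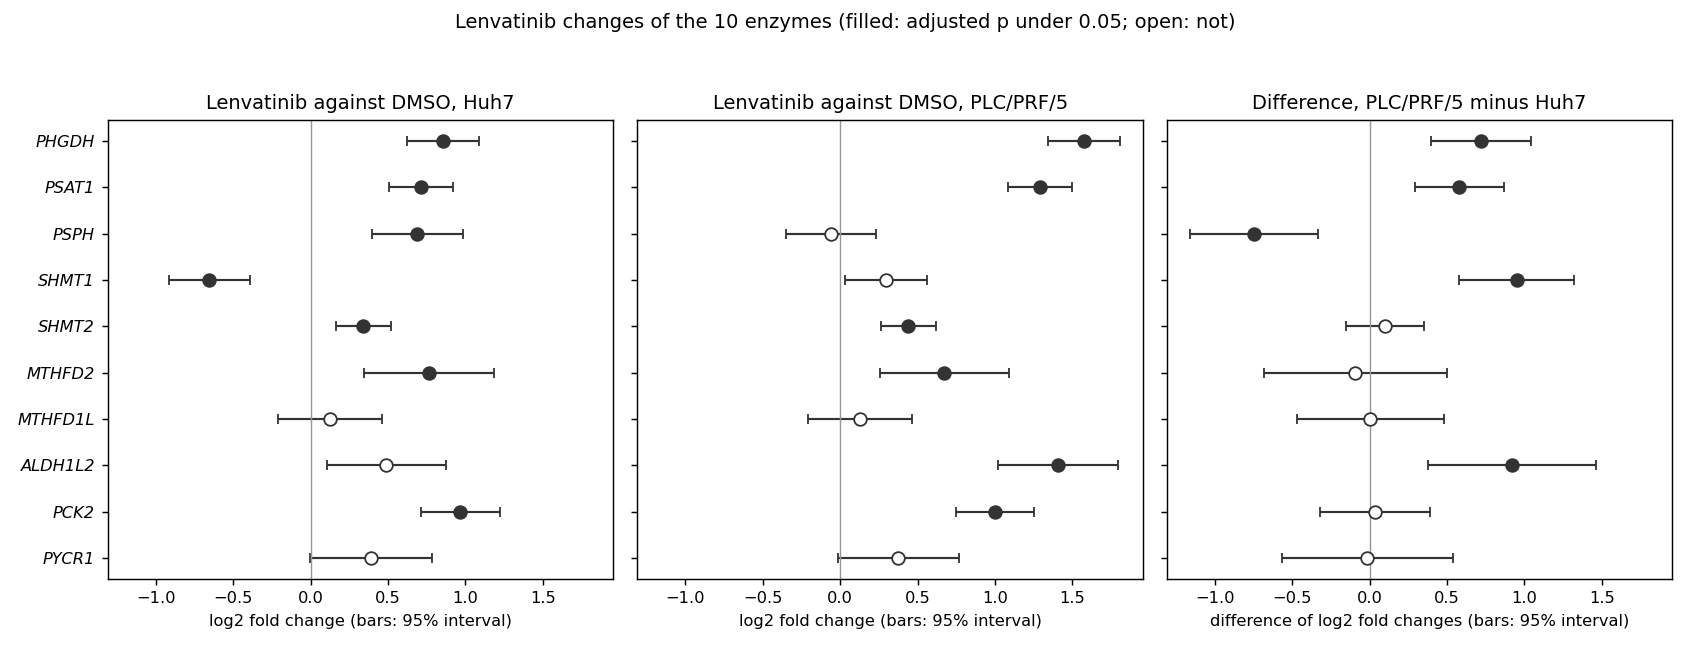
Log2 fold change of each enzyme with its 95% interval (horizontal axis) for lenvatinib against DMSO in Huh7 and in PLC/PRF/5, and the difference between them. Filled points passed the test. PHGDH and PSAT1 lie right of 0 in all 3 panels, PSPH lies right of 0 in Huh7 and left of it in PLC/PRF/5 (-0.06) and in the difference (-0.75), and MTHFD1L and PYCR1 have open points throughout.

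The lines differed in their response for 5 of the 10 enzymes, tested as the interaction of line and treatment; 14.4% of all rows passed that test, 7.51% higher and 6.91% lower in PLC/PRF/5. PHGDH rose by 1.57 in PLC/PRF/5 and by 0.86 in Huh7, a difference of 0.72 (95% interval 0.40 to 1.04, adjusted p = 0.00805). PSAT1 rose by 1.29 and 0.71 in these lines, a difference of 0.58 (0.29 to 0.87, adjusted p = 0.0134). The SHMT1 changes were 0.30 and -0.65, a difference of 0.95 (0.58 to 1.32, adjusted p = 0.00371).

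For ALDH1L2 the difference was 0.92 (0.37 to 1.46, adjusted p = 0.0304), and for PSPH, where Huh7 alone rose, it was -0.75 (-1.16 to -0.34, adjusted p = 0.0218). Both of these calls lay near the threshold and were lost when 1 of several libraries was left out. The ALDH1L2 difference was 0.78 to 0.94 and missed the threshold (adjusted p 0.0513 to 0.0698) without Huh7 DMSO replicate 1 or 2, Huh7 lenvatinib replicate 1, PLC/PRF/5 DMSO replicate 1 or PLC/PRF/5 lenvatinib replicate 2 or 3. The PSPH difference was -0.67, -0.71 and -0.70 and missed it (adjusted p 0.0531, 0.0533 and 0.0528) without Huh7 DMSO replicate 2, Huh7 DMSO replicate 3 and PLC/PRF/5 DMSO replicate 1, so that 3 or 4 of the 5 calls were left. The intervals of the other 5 differences all included 0: -0.15 to 0.35 for SHMT2, -0.68 to 0.50 for MTHFD2, -0.47 to 0.48 for MTHFD1L, -0.32 to 0.39 for PCK2 and -0.57 to 0.54 for PYCR1.

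In a comparison that shares its libraries with both lenvatinib comparisons, most of the 10 enzymes, like most rows, differed between the lines under DMSO. PLC/PRF/5 was higher than Huh7 in 6 and lower in 3, where 67.0% of all rows passed the test, 33.6% higher and 33.4% lower. PYCR1 averaged 34.3 ± 5.56 FPKM in PLC/PRF/5 and 9.77 ± 0.457 FPKM in Huh7 (SD, n = 3 each), a log2 fold change of 1.80 ± 0.18 (adjusted p = 6.27e-06). MTHFD1L averaged 13.6 ± 0.756 FPKM in PLC/PRF/5 and 4.68 ± 0.307 FPKM in Huh7, 1.53 ± 0.15 on the log2 scale (adjusted p = 5.28e-06). MTHFD2 was higher in PLC/PRF/5 by 1.16 ± 0.19, ALDH1L2 by 0.85 ± 0.18, PCK2 by 0.84 ± 0.11 and PSPH by 0.63 ± 0.13.

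PHGDH, by contrast, averaged 6.11 ± 0.704 FPKM in PLC/PRF/5 and 18.7 ± 2.17 FPKM in Huh7 (SD, n = 3 each), a log2 fold change of -1.62 ± 0.11 (adjusted p = 1.51e-07). SHMT1 (-0.88 ± 0.12) and SHMT2 (-0.70 ± 0.08) were also lower in PLC/PRF/5. PSAT1, at 98.5 ± 3.77 FPKM in PLC/PRF/5 and 108 ± 3.61 FPKM in Huh7, did not pass the test (-0.14 ± 0.09, adjusted p = 0.198), though it did so in a fit of only these groups (adjusted p = 0.0452) and without the Huh7 lenvatinib replicate 2 (0.0352). The ratio of PSAT1 to PHGDH in FPKM thus ran from 12.3 to 17.6 in PLC/PRF/5 and from 4.09 to 6.22 in Huh7, both treatments included.

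In order of mean FPKM, PSAT1 came first in every group. SHMT2 followed in both Huh7 groups and MTHFD2 in both PLC/PRF/5 groups. In Huh7 with lenvatinib, PHGDH, MTHFD2 and PSPH followed with overlapping neighbours, as did PHGDH, PSPH and MTHFD2 with DMSO. In PLC/PRF/5, PHGDH came at rank 7 with lenvatinib and at rank 8 with DMSO, and PCK2 at rank 4 and rank 6. The summed FPKM of the 10 was 315 to 393 in Huh7 with lenvatinib and 220 to 225 with DMSO, and 475 to 522 in PLC/PRF/5 with lenvatinib and 256.5 to 261.5 with DMSO.

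Of 82 genes in 10 lists around these enzymes, 76 were tested, of which 26 rose and 16 fell in Huh7 and 17 rose and 12 fell in PLC/PRF/5. That is 34.2% higher and 21.1% lower in Huh7, beside 11.4% and 13.3% of all rows, and 22.4% higher and 15.8% lower in PLC/PRF/5, beside 9.05% and 11.1% of all rows. The list counts that follow are to be read against these shares, to which a single gene passing in a list is close. In each line 3 of the 76 tested genes were under 0.5 FPKM in both groups and had entered the test through the other line, PCK1, MAT1A and SDS in Huh7 and SLC7A10, MYCN and AMT in PLC/PRF/5; without them, a limit set after the data were seen, 25 of 73 rose and 16 fell in Huh7 and 17 of 73 rose and 11 fell in PLC/PRF/5. The glycolysis list, which supplies 3-phosphoglycerate to PHGDH and takes up phosphoenolpyruvate, fell in 5 of 6 genes in both lines (GAPDH, PGK1, PGAM1, ENO1 and PKM), the other being PCK1, the cytosolic carboxykinase, which was nearly undetected in Huh7 (0.00439 FPKM with lenvatinib and 0.00223 with DMSO) and did not pass the test in PLC/PRF/5. The median log2 fold change was -1.01 over the 5 genes other than PCK1 in Huh7 and -0.55 over all 6 in PLC/PRF/5; with limma on FPKM 4 of the 6 fell in PLC/PRF/5. PGK1, the kinase that makes 3-phosphoglycerate, averaged 52.1 ± 2.74 FPKM in Huh7 with lenvatinib and 104 ± 1.86 with DMSO, a log2 fold change of -1.01 ± 0.05 (SD, n = 3; adjusted p = 1.56e-07), and 107 ± 2.44 and 146 ± 2.999 FPKM in PLC/PRF/5, -0.53 ± 0.05 (adjusted p = 5.36e-05). PGAM1, the mutase that draws 3-phosphoglycerate down glycolysis, changed by -1.04 ± 0.06 in Huh7 and -0.57 ± 0.06 in PLC/PRF/5 on the log2 scale. ENO1 fell by 0.71 in Huh7 and GAPDH by 0.82 in PLC/PRF/5.

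**Figure D4:**
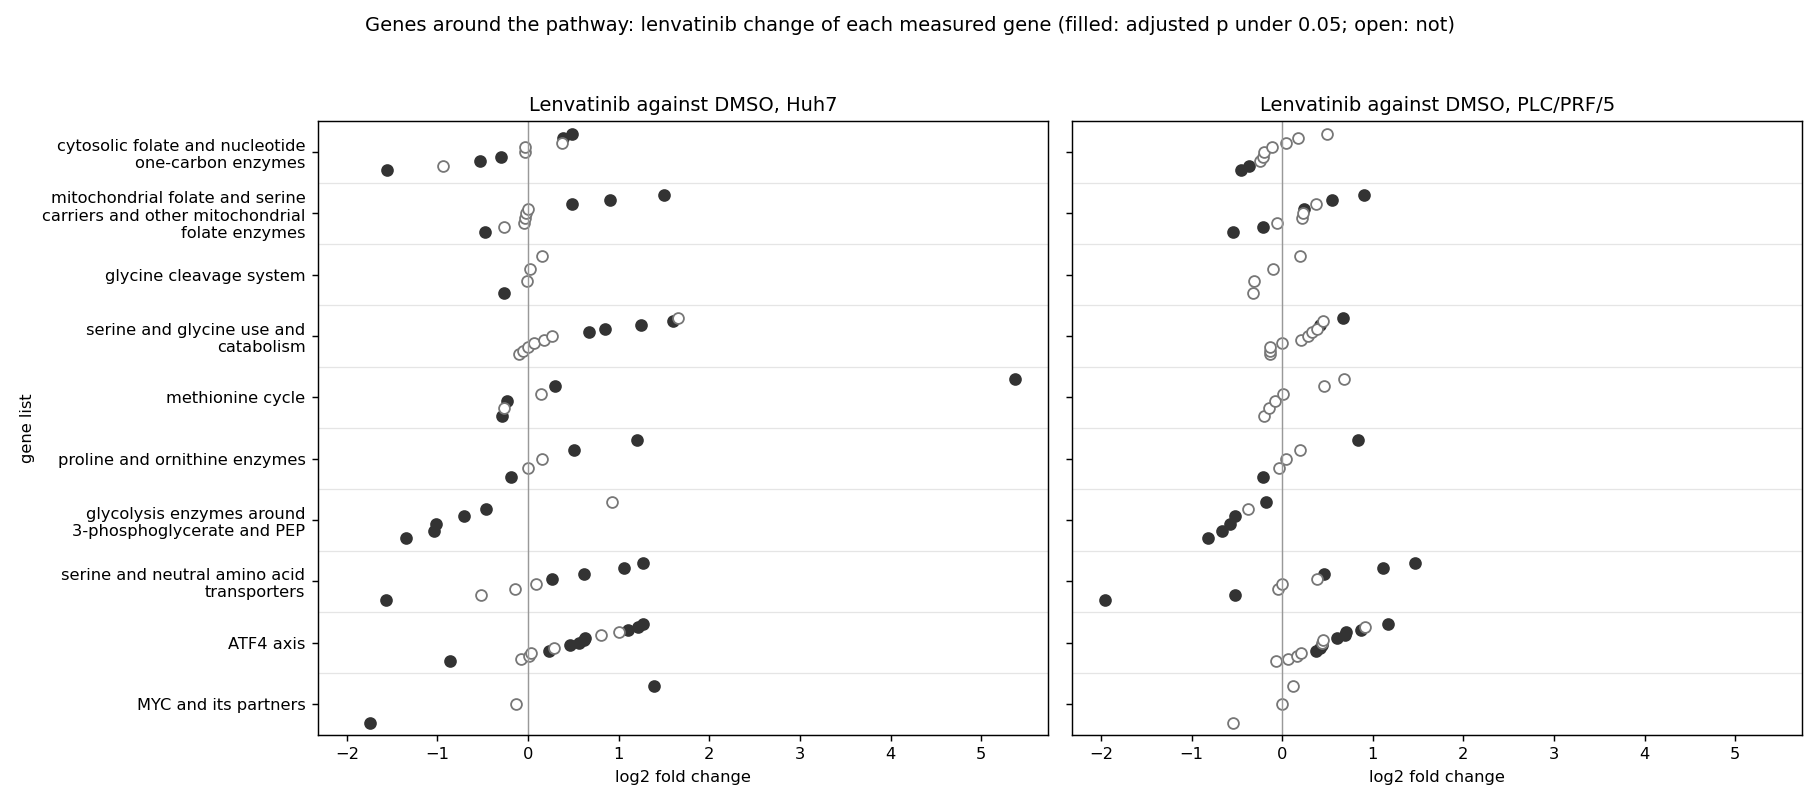
Log2 fold change (horizontal axis) of each measured gene of the 10 lists around the enzymes, for lenvatinib against DMSO in Huh7 and PLC/PRF/5; each point is a gene, filled where it passed the test. The glycolysis genes that passed lie left of 0 in both lines, and 8 filled points of the ATF4 list lie right of 0 in each line.

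The ATF4 list rose in 8 of 15 genes and fell in 1 in Huh7, and rose in 8 and fell in none in PLC/PRF/5. Among the risers, 5 (ATF4, CEBPG, ASNS, SESN2 and DDIT4) were shared by both lines. DDIT3, CEBPB and CHAC1 passed as higher in Huh7 only, and TRIB3 and STC2 in PLC/PRF/5 only. VLDLR fell in Huh7 and rose in PLC/PRF/5. The list's median was 0.57 in Huh7 and 0.44 in PLC/PRF/5 on the log2 scale, and no gene of it fell in PLC/PRF/5 at an unadjusted p under 0.05 or with DESeq2 or limma. ATF4 itself averaged 23.7 ± 0.751 FPKM in Huh7 with lenvatinib and 15.8 ± 0.412 with DMSO (SD, n = 3), a log2 fold change of 0.57 ± 0.05 (adjusted p = 1.31e-05). ASNS, the asparagine synthetase that ATF4 is known to induce, rose by 1.10 ± 0.09 in Huh7 and by 1.17 ± 0.09 in PLC/PRF/5 (adjusted p = 1.16e-05 and 2.7e-05). CEBPG, a binding partner of ATF4, rose by 0.46 ± 0.04 and 0.69 ± 0.04, and SESN2, a stress-induced inhibitor of mTORC1 signalling, by 0.61 ± 0.07 in PLC/PRF/5.

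Among 8 transporters of serine and other neutral amino acids, 4 rose and 1 fell in Huh7 and 3 rose and 2 fell in PLC/PRF/5. One of the fallers in PLC/PRF/5 was SLC7A10, a small neutral amino acid exchanger, at only 0.0472 FPKM with lenvatinib and 0.182 with DMSO there, whose call was lost with limma on log2(FPKM + 1) (-0.174, adjusted p = 0.110). SLC1A4, a carrier of serine and alanine, averaged 15.3 ± 0.484 FPKM in PLC/PRF/5 with lenvatinib and 5.25 ± 0.330 with DMSO (SD, n = 3), a log2 fold change of 1.46 ± 0.07 (adjusted p = 1.96e-06). SLC7A11, the cystine importer, rose by 1.27 ± 0.18 in Huh7 and 1.11 ± 0.18 in PLC/PRF/5. SLC3A2, its heavy chain, rose by 1.06 ± 0.17 in Huh7. SLC38A2, a sodium-coupled importer of small neutral amino acids, fell in both lines. It averaged 31.1 ± 4.41 FPKM with lenvatinib and 90.4 ± 0.661 FPKM with DMSO in Huh7, a log2 fold change of -1.56 ± 0.09 (adjusted p = 6.32e-07), and 64.1 and 87.3 FPKM in PLC/PRF/5, -0.52 ± 0.08 (adjusted p = 0.00176).

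On the cytosolic side of folate metabolism, 2 of 9 tested genes rose and 3 fell in Huh7, and 2 fell in PLC/PRF/5, where DESeq2 and limma voom called 4 lower. TYMS, thymidylate synthase, averaged 12.7 ± 2.59 FPKM in Huh7 with lenvatinib and 36.5 ± 2.80 with DMSO (SD, n = 3), a log2 fold change of -1.55 ± 0.14 (adjusted p = 2.64e-05). In PLC/PRF/5 it did not pass the test (-0.12 ± 0.14, adjusted p = 0.616), and the TYMS difference between the lines was 1.44 (adjusted p = 0.00088). MTHFD1, the cytosolic enzyme that uses formate, fell by 0.30 in Huh7 and by 0.37 in PLC/PRF/5 on the log2 scale. GGH, which trims folate polyglutamates, fell by 0.53 in Huh7 and did not pass the test in PLC/PRF/5 (0.17, adjusted p = 0.0653). It passed as higher there with library totals (0.248, 0.0116), with limma voom (0.188, 0.0378), in both FPKM fits and without DMSO replicate 1 (0.212, 0.0474). The GGH difference between the lines was 0.71 (adjusted p = 0.000339). FPGS, which lengthens folate polyglutamates, fell by 0.45 in PLC/PRF/5 (adjusted p = 0.01) and was at 0.38 in Huh7 (adjusted p = 0.0179). Its difference between the lines was -0.84 (adjusted p = 0.00294). The Huh7 call was lost without DMSO replicate 2 or 3 (0.376 and 0.292, adjusted p 0.055 and 0.0635) and in a fit of only these groups (0.0625).

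In the list of mitochondrial folate and serine carriers and other mitochondrial folate enzymes, 3 of 9 genes rose in each line, and 1 fell in Huh7 and 2 in PLC/PRF/5. DMGDH, which strips methyl groups from dimethylglycine onto folate, rose by 0.91 ± 0.12 in Huh7 and by 0.55 ± 0.12 in PLC/PRF/5. SFXN1, a mitochondrial serine carrier, fell by 0.47 in Huh7; its PLC/PRF/5 value of -0.21 (adjusted p = 0.0321) missed the threshold without DMSO replicate 1 or 2 or lenvatinib replicate 1, 2 or 3 (-0.14 to -0.23, adjusted p 0.0527 to 0.0985). That call was also lost with library totals (-0.132, adjusted p = 0.141), in limma fits of FPKM with a pseudocount of 1 or 0.1 (-0.119 and -0.126), with no filter (-0.189) and in a fit of only these groups (-0.194). SFXN3, of the same family, rose by 0.49 ± 0.07 in Huh7 and was at 0.24 ± 0.07 in PLC/PRF/5 (adjusted p = 0.0327), a call lost without any 1 of the 6 PLC/PRF/5 libraries (0.225 to 0.26, adjusted p 0.0533 to 0.0944) and with another filter or none (0.0521 and 0.0565). Of 4 genes of the glycine cleavage system, 1 passed the test, in Huh7: DLD, its lipoamide dehydrogenase, fell by 0.26. None passed with edgeR in PLC/PRF/5, where 1 was lower at an unadjusted p under 0.05, 1 with DESeq2 and 1 with limma voom.

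Of 11 tested genes that use or break down serine and glycine, 4 rose in Huh7 and 2 in PLC/PRF/5. The PLC/PRF/5 count was 3 with DESeq2 and with limma voom, 4 at an unadjusted p under 0.05 and 5 with limma on log2(FPKM + 1), so the counts do not set the lines apart. CBS, which joins serine to homocysteine, rose in both, by 0.67 ± 0.12 in Huh7 and 0.67 ± 0.12 in PLC/PRF/5. CTH, the next enzyme towards cysteine, rose by 0.85 ± 0.12 in Huh7; in PLC/PRF/5 it was at 0.41 ± 0.12 (adjusted p = 0.0309) and missed the threshold without DMSO replicate 1, 2 or 3 or lenvatinib replicate 1 (0.31 to 0.44, adjusted p 0.0606 to 0.118). SDSL, a serine dehydratase-like enzyme, rose by 1.60 ± 0.15 in Huh7 and stood at 0.38 ± 0.14 in PLC/PRF/5, where it did not pass the test (adjusted p = 0.0778). It did pass there with DESeq2 (0.0464), with limma voom (0.0108), with library totals (0.0414) and in both FPKM fits. The same held in a fit of only these groups (0.0151) and without Huh7 lenvatinib replicate 1 or 3 (0.0359 and 0.0188). By the interaction test the SDSL changes differed between the lines, by -1.22 ± 0.20 in PLC/PRF/5 minus Huh7 (adjusted p = 0.00231).

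In the methionine cycle 2 of 6 tested genes rose and 2 fell in Huh7 (1 and 2 of 5 without the barely detected MAT1A), and in PLC/PRF/5 none of the 6 passed with edgeR. At an unadjusted p under 0.05, 1 was higher and 2 lower there; DESeq2 called 2 higher and 1 lower, limma voom 1 higher and 1 lower, and limma on FPKM 2 higher. MAT2A, which makes S-adenosylmethionine, rose by 0.30 ± 0.06 in Huh7, and AHCY, which clears S-adenosylhomocysteine, fell by 0.23. MAT1A, the hepatocyte form, averaged 0.498 ± 0.0685 FPKM in Huh7 with lenvatinib and 0.0113 ± 0.0195 FPKM with DMSO (SD, n = 3), too low under DMSO for a fold change; it had entered the test through PLC/PRF/5. Of 5 tested proline and ornithine genes, 2 rose and 1 fell in Huh7 and 1 rose and 1 fell in PLC/PRF/5. ALDH4A1, which degrades the proline intermediate, rose by 1.199 ± 0.175 in Huh7 and 0.84 ± 0.17 in PLC/PRF/5. ALDH18A1, which starts proline synthesis from glutamate, was at -0.19 in Huh7 and -0.21 in PLC/PRF/5 on the log2 scale (adjusted p = 0.025 and 0.0206). Its call was lost without Huh7 DMSO replicate 2 or 3 or lenvatinib replicate 1 or 3 (-0.146 to -0.195, adjusted p 0.0622 to 0.0807) and without PLC/PRF/5 DMSO replicate 2 or lenvatinib replicate 1 or 3 (-0.174 to -0.218, adjusted p 0.0519 to 0.0723). The PLC/PRF/5 value was also -0.135 with library totals (adjusted p = 0.0839), -0.128 and -0.131 in the limma fits of FPKM and -0.192 with no filter, and the Huh7 value -0.194 in a fit of only these groups (0.0513); none of these passed the threshold. PYCR3, a cytosolic relative of PYCR1, was at 0.50 in Huh7 (adjusted p = 0.0341), and its call was lost without any 1 of the 6 Huh7 libraries (0.40 to 0.57, adjusted p 0.0504 to 0.119), with another filter or none (0.0561 and 0.0792) and in a fit of only these groups (0.0541).

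MYC, a transcription factor known to act on several of these enzymes, rose by 1.39 ± 0.28 in Huh7, where its level stayed low at 1.97 ± 0.381 FPKM with lenvatinib and 0.737 ± 0.231 with DMSO; in PLC/PRF/5 it was 2.32 ± 0.713 with lenvatinib and 2.02 ± 0.341 FPKM with DMSO. Of MYC, MYCN and MAX, MYCN was the only one to fall in Huh7, with 0.468 FPKM with lenvatinib and 1.54 with DMSO. In PLC/PRF/5 MYCN is listed at 0 in every library and so could not be tested there, and neither MYC nor MAX passed with edgeR, at an unadjusted p under 0.05, or with DESeq2 or limma.

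Over the 12 libraries, each centred on its own line, the mean profile of PHGDH, PSAT1 and PSPH was most like those of SLC43A1 (Pearson r = 0.983), AARS1 (0.982), GAA (0.980), UHRF1BP1 (0.977) and PIR (0.974), among 7091 rows with a mean FPKM of at least 5. SLC43A1, a carrier of large neutral amino acids, rose by 1.16 ± 0.05 in Huh7 and 0.96 ± 0.05 in PLC/PRF/5. AARS1, the alanyl-tRNA synthetase, rose by 0.71 ± 0.04 and 0.61 ± 0.04 in these lines. For SHMT2, MTHFD2, MTHFD1L and ALDH1L2 the profiles most like theirs were PIEZO1 (0.968), SLC7A1 (0.963), NARS1 (0.961), PRMT3 (0.951) and KDM4A (0.94). Of these, PIEZO1 and PRMT3 passed the edgeR test in Huh7, while SLC7A1, NARS1 and KDM4A did not (adjusted p = 0.107, 0.229 and 0.0898). All passed in PLC/PRF/5, where KDM4A (adjusted p = 0.0465) lost its call in 13 of 24 alternatives and NARS1 in 4. In Huh7, PIEZO1 lost its call in 4 alternatives and PRMT3 in 3, while SLC7A1 gained one in 3 and NARS1 and KDM4A in 1 each. The profiles were centred by line and not by group, so they hold the lenvatinib change itself. A high r thus largely restates a similar change with lenvatinib, and the fold changes add nothing independent. These points also share libraries and depth with the enzymes, and the likeness is a description.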

How the data were processed

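The deposited table gives each library's raw counts and FPKM, both computed by the authors per the file headers, with gene symbols and no gene identifiers. Per the labels' protocols, RNA was taken with a column kit, mRNA was fragmented and primed with random hexamers, and single ends were read on a BGIseq500. HISAT2 and hg19 are named in the submitters' processing notes; no source used here names the counting program, annotation or strand setting. Libraries were grouped by their titles, and 12 columns of another cell line were not used. The whole table was fitted with edgeR 4.0.16 (robust quasi-likelihood, TMM, 1 coefficient per group, 12 libraries, common biological coefficient of variation 0.234); a standard error is the absolute log2 fold change divided by the root of F. Rows with a mean FPKM under 0.5 were left out. Alternatives used DESeq2 1.42.0 and limma 3.58.1 in R 4.3.3, with Python 3.11.15 and matplotlib 3.10.9 for tables and figures; the fit was tested on simulated data. The members, lists and tests were chosen with earlier results of these data known. Named are the 10 enzymes, up to 3 genes per list and line of smallest adjusted p with a mean FPKM of at least 1, the most alike profiles and STX6; names given with a list's count, and the second line's values of FPGS, GGH, SDSL, SFXN3 and SLC38A2, were chosen after their values were seen. Counting errors cover counting only.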

Additional observations from a re-analysis of the deposited data

Results flagged for a closer look

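The change with lenvatinib differed between the lines, by the interaction test of edgeR's quasi-likelihood fit, for 5 enzymes. The difference of the log2 fold changes, PLC/PRF/5 minus Huh7, was 0.7183 for PHGDH, 0.5777 for PSAT1 and 0.9497 for SHMT1, with adjusted p of 0.00805, 0.0134 and 0.00371. It was 0.919 for ALDH1L2 and -0.7501 for PSPH, with adjusted p of 0.0304 and 0.0218; the ALDH1L2 call was lost in 7 of 23 alternatives, 6 of them with a single library left out, and the PSPH call in 3, all with a single library left out. PHGDH and PSAT1 rose in 3 of 3 lenvatinib libraries of each line, SHMT1 was below all DMSO libraries in 3 of 3 Huh7 lenvatinib libraries and above them in 3 of 3 of PLC/PRF/5. How many of all rows separate like this was not counted.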

How the results depend on the processing

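Each comparison was refitted under 24 alternatives and the difference between the lines under 23. Of 950 such values for the 10 enzymes, 891 kept direction and side of the threshold, 20 lost the call, 6 gained it and 33 changed sign, all 33 among values that had not passed the test. The rises of PHGDH, PSAT1, PSPH, SHMT2 and PCK2 and the fall of SHMT1 in Huh7, and the rises of PHGDH, PSAT1, SHMT2, ALDH1L2 and PCK2 in PLC/PRF/5, held under all of these. With single libraries left out, the number of enzymes called in the difference was 3 to 5, and of those lower 0 to 1. The labels share replicate numbers between groups without saying that a number marks a shared culture or day. Same-numbered libraries had residual correlations within Huh7 of 0.00361 to 0.026, within PLC/PRF/5 of -0.0183 to -0.00855, and between the DMSO groups of -0.00357 to 0.0494. Over all rows these show no large shared effect, but they cannot tell whether same-numbered libraries shared a culture or day. With the replicate number as a block, the ALDH1L2 difference was 0.956 (adjusted p = 0.0585); no other call of the 10 enzymes changed with the replicate block, while among the other named genes it ended those of SFXN1 (adjusted p = 0.0624), SFXN3 (0.065), CTH (0.0553) and KDM4A (0.0719) in PLC/PRF/5 and PYCR3 in Huh7 (0.0584).

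MTHFD2 in Huh7 had an adjusted p of 0.0894 in a fit of only the groups compared, and in PLC/PRF/5 of 0.0887 with no filter. PSPH in PLC/PRF/5 was 0.0168 with library totals, 0.0083 and 0.0082 in limma fits of FPKM with a pseudocount of 1 and 0.1, and -0.167 to 0.0662 with a library left out. MTHFD1L in Huh7 was -0.0951 (without lenvatinib replicate 3) to 0.291 with a library left out. Among differences, MTHFD2 was 0.0936 with limma voom, 0.0315 and 0.0176 in the FPKM fits and -0.257 to 0.233 with a library left out; MTHFD1L was -0.00908 with RLE factors, -0.00907 with DESeq2 and -0.164 to 0.221 with a library left out. The PCK2 difference was -0.00889 with voom and -0.0472 to 0.164 with a library left out. The PYCR1 difference was 0.0414 with library totals, 0.00823 with no filter, 0.0867 and 0.0698 in the FPKM fits, 0.0103 with the replicate block and -0.165 to 0.178 with a library left out. For STX6 the FPKM fits gave 2.32 and 2.47 in Huh7 and 2.06 and 2.16 in PLC/PRF/5, against -0.0278 and 0.183 from the counts, which ran from -0.0814 to 0.044 and from -0.242 to 0.537 with a library left out. Of 1727 values for the other named genes' 72 results, 1625 kept direction and side, 75 lost the call, 20 gained it and 7 changed sign, all 7 for STX6. Apart from fewer samples or other genes tested, the cause of these changes was not tested. Depth limits the members little, while 3 libraries a group limit every comparison.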
